A study of Rattus norvegicus with 12 samples.

Results

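The CD300 receptor family was followed in the lungs of rats exposed to cigarette smoke (CS) and lipopolysaccharide (LPS), a rat model of chronic obstructive pulmonary disease (COPD). The members chosen were 6 of its genes, Cd300lg, Cd300c2, Cd300a, Cd300lf, Cd300lb and Cd300le, and their probes were found by gene symbol among 30367 probes for rat transcripts. Probes were found for 4 of the 6 genes and numbered 5 in all. They were 2 probes of Cd300lg and 1 probe each of Cd300c2, Cd300lf and Cd300lb. Cd300a and Cd300le had no matching probe and were not analysed here. The members were chosen by their measured signals, since Cd300lg and Cd300c2 moved in opposite directions between the CS + LPS + NaHS and the CS + LPS groups, so that comparison is given below as a description and without a test. The other comparisons that hold the CS + LPS or the NaHS arrays share a group with this choice. Their calls, intervals and p-values for the members are therefore not free of it. Only CS + LPS + PPG against control uses none of those arrays as group values.

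All rats were male, 8 to 12 weeks old by the labels, and of the Sprague-Dawley strain. Each of the 4 groups had 3 rats, and each rat had an array of its own. The control rats received air and saline. The CS + LPS rats inhaled smoke until day 30 and had 200 μl of LPS solution at 500 μg/ml instilled into the trachea on days 5 and 19. The CS + LPS + NaHS rats had the same exposure after intraperitoneal NaHS, a donor of hydrogen sulfide, at 14 μmol/kg. The CS + LPS + PPG rats had the same exposure after intraperitoneal PPG, an inhibitor of the hydrogen sulfide-producing enzyme CTH. Lungs were taken 24 h after the last smoke, and the RNA came from whole tissue of the left upper lobe. In whole tissue, fewer cells of a type and less RNA per cell cannot be told apart.

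CD300 molecules are cell surface receptors with an immunoglobulin-like domain, and most of them are carried by myeloid cells such as macrophages, monocytes, neutrophils and mast cells. They bind lipids of the cell membrane, among them phosphatidylserine and ceramide, and either restrain or promote activation of the cell. Inhibitory members carry motifs in their cytoplasmic tail that recruit phosphatases, whereas activating members signal through adaptor proteins such as Tyrobp (DAP12) and Fcer1g. Cd300lg, also called nepmucin, differs from the rest in being a protein of vascular endothelium. In the lung, where myeloid cells clear inhaled particles and dying cells, these receptors belong to the set of molecules that tune phagocytes.

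In the rat gene table of assembly GRCr8, 12 protein-coding CD300 genes and 3 pseudogenes lay on chromosome 10. Cd300lg stood apart from the others, with 265 listed genes between it and Cd300a, the nearest member of the cluster. Within the cluster, Cd300c2 lay between Cd300c and Cd300le, and Cd300lf lay beyond Cd300e. The array probe of Cd300c2 was placed by the authors' list at chr10:105088507-105088566, and the array files name the build rn4. Several genes of the cluster are close relatives of Cd300c2 (Cd300c, Cd300cl1, Cd300c2l1), and whether its probe also binds their transcripts was not tested.

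Whether the bases before the start of a member had a part in its level was not tested. The stretches of 250 bases before the start of Cd300c2 and of Cd300lf, which do not adjoin in the cluster, are shown as examples. They come from RefSeq, assembly GRCr8, minus strand, and run 5′ to 3′ up to the start site. They cover chr10:100757321-100757570 for Cd300c2 and chr10:100875023-100875272 for Cd300lf. Capitals mark the letters AGGAAG, or CTTCCT on the other strand, which hold the core of sites bound by ETS factors such as PU.1, the factor of myeloid cells.
Cd300c2: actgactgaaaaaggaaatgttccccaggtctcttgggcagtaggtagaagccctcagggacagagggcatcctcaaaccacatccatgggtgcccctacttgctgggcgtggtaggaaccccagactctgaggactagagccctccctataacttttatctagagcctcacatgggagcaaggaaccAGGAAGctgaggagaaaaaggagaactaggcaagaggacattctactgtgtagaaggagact
Cd300lf: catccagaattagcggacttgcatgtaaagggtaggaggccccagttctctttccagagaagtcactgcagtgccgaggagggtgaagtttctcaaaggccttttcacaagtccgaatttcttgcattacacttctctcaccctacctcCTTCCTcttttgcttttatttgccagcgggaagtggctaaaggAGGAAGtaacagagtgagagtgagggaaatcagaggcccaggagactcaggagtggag
These letters occurred 1 time before Cd300c2 and 2 times before Cd300lf. They also occurred 2 times before Cd300a and 1 time before Cd300lb, and 29.5% of 33469 rat promoter stretches of the same length held them at least 1 time. The longer form GAGGAAGT, or ACTTCCTC, which overlaps the shorter one, was found before Cd300lf only among these 4 members and in 2.04% of all stretches. A match is a run of letters and not a site shown to be bound. Promoter entries were found for 4 of the 6 members, and Cd300lg and Cd300le had none.

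Values are processed signals on the log2 scale after alignment of the 75th percentile of each array, so a difference of 1 is a change of 2-fold. A gene was called differentially expressed (DE) when it passed both thresholds of the study, a 2-fold change and an unadjusted p under 0.05, here taken from limma. The adjusted p printed below is that of Benjamini-Hochberg over the 21239 detected probes, and no member had one under 0.05 with all 12 arrays, the processing used here and no slide block. The 12 arrays lay on 2 slides, with control replicate 3 and all CS + LPS arrays on slide 2 and the other 8 arrays on slide 1. Slide and group therefore cannot be told apart where CS + LPS is compared with a treated group, and a single control array links the slides. Control replicate 3 also had the lowest 75th percentile of all arrays, 1229 against 2110 to 3261, and correlated with the others at r = 0.936 to 0.957, whereas r was at least 0.975 among the other 11 arrays. All 8 lung epithelial markers looked for were detected, and none was DE in any comparison.

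Cd300lg was not at similar levels among the rats of a group. The log2 signal of its most intense probe was 12.66, 11.84 and 6.99 in control replicates 1, 2 and 3. It was 5.51, 5.42 and 10.84 in CS + LPS replicates 1 to 3. It was 12.37, 11.24 and 11.30 in the NaHS group and 11.52, 5.68 and 11.02 in the PPG group. The arrays therefore fell into 2 separate ranges, 8 arrays between 10.84 and 12.66 and 4 arrays between 5.42 and 6.99. The low range held 2 of 3 CS + LPS arrays, 1 of 3 PPG arrays, 1 of 3 control arrays and 0 of 3 NaHS arrays. Of the 4 low arrays, 3 lay on slide 2 and 1 on slide 1, and of the 8 high arrays, 1 lay on slide 2 and 7 on slide 1. On the linear scale the processed signal was 43.9 to 69.8 in the low range and 1897 to 5900 in the high range, and the spots were above background on all 12 arrays.

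**Figure D1:**
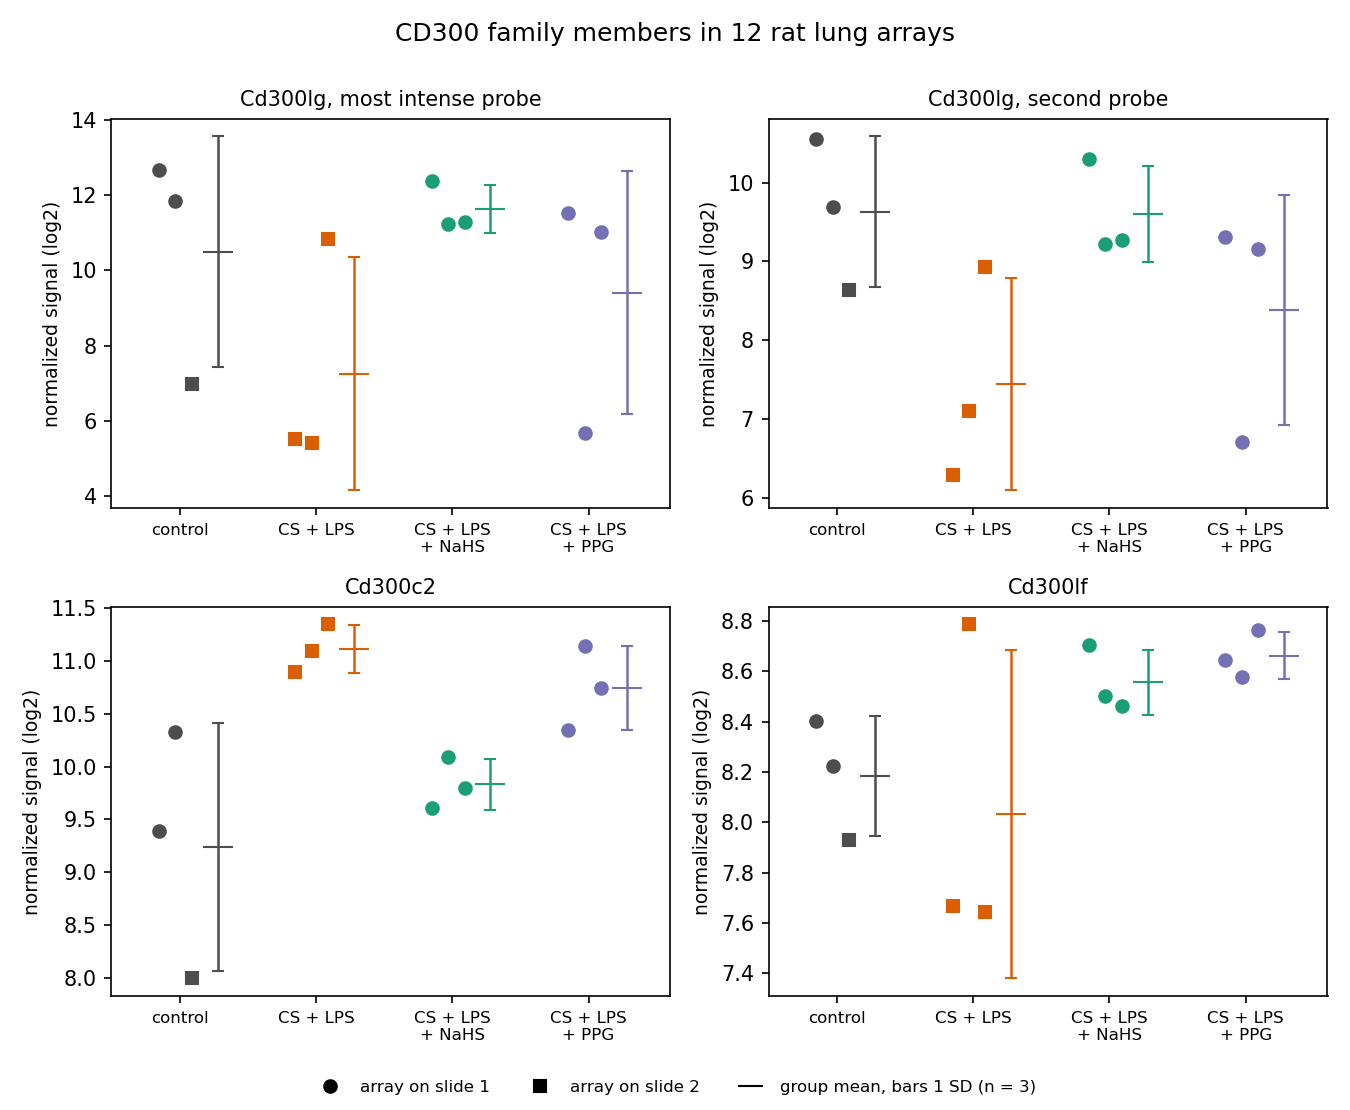
Normalized signal on the log2 scale (vertical axis) of each array for both probes of Cd300lg, for Cd300c2 and for Cd300lf, by group, with circles for slide 1 and squares for slide 2. The horizontal bars are group means with 1 SD (n = 3). By its most intense probe Cd300lg has arrays below 7 in every group but NaHS, and Cd300c2 is higher in all CS + LPS arrays than in any control array.

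The second probe of Cd300lg was lowest on the same 4 arrays, but divided them differently and over a narrower range. Its log2 signal was 10.56, 9.69 and 8.64 in the control group, 6.29, 7.10 and 8.93 in the CS + LPS group, 10.31, 9.22 and 9.28 in the NaHS group, and 9.31, 6.70 and 9.15 in the PPG group. The 4 arrays that were low with the first probe lay at 6.29 to 8.64 against 8.93 to 10.56 in the other 8. The widest gap of the second probe, 1.54, lay between 7.10 and 8.64, so that control replicate 3 was closer to the high arrays than to the other 3 low ones. The first probe was printed as 2 spots on each array, and these differed by at most 0.48 on the log2 scale. The low values of CS + LPS replicates 1 and 2 and of PPG replicate 2 were thus seen with both probes. Control replicate 3 was clearly low with the first probe, and with the second it lay below the other 8 but near them.

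**Figure D2:**
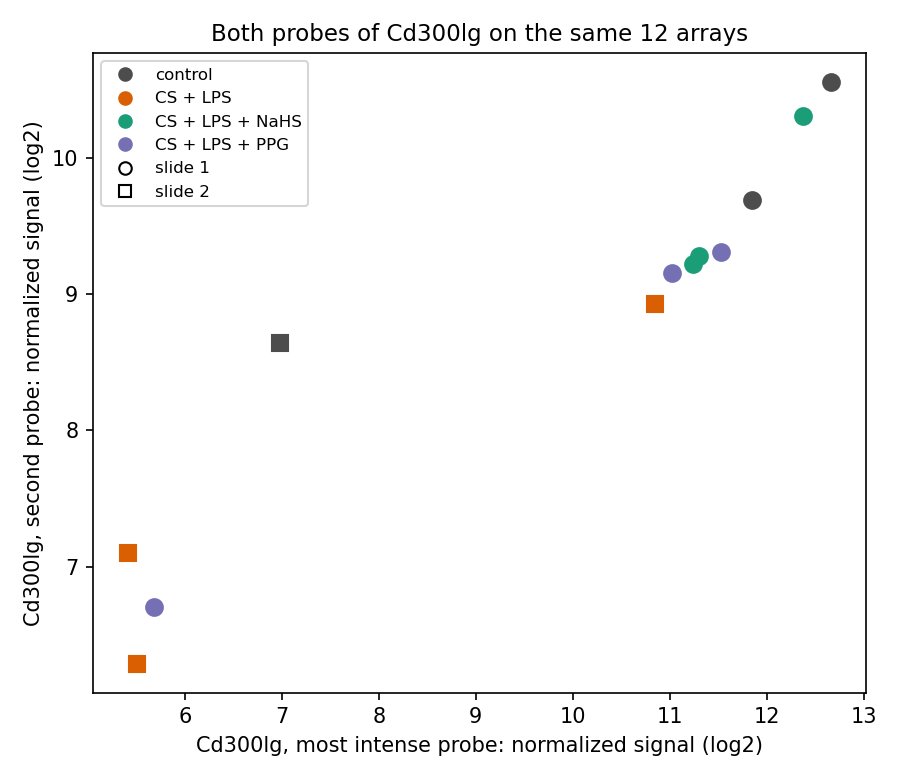
Normalized log2 signal of the second probe of Cd300lg (vertical axis) against that of the most intense probe (horizontal axis), 1 point per array, coloured by group, with circles for slide 1 and squares for slide 2. The 4 arrays between 5.42 and 6.99 with the first probe lie below the other 8 with the second probe as well, but control replicate 3, at 8.64, lies close to them and apart from the other 3.

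The spread of Cd300lg within groups was among the widest on the array. Its pooled SD within groups was 2.74 on the log2 scale, against a median of 0.26 over all detected probes, and 9 of 21239 detected probes (0.0424%) had a larger one. The gap of 3.86 between its low and its high range was exceeded by 7 of 21213 probes when at least 3 arrays had to lie on each side. The second probe had a pooled SD of 1.15. The means by group were 10.50 ± 3.07 in control, 7.26 ± 3.11 in CS + LPS, 11.64 ± 0.64 with NaHS and 9.41 ± 3.24 with PPG (SD, n = 3).

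Against control, no change of Cd300lg was called with its most intense probe. Among all detected probes 4.56% were DE between CS + LPS and control, 2.67% between CS + LPS + NaHS and control, and 4.38% between CS + LPS + PPG and control. For CS + LPS against control the difference was -3.24 (95% interval -7.49 to 1.01, adjusted p = 0.298), and the groups overlapped. It was called DE without control replicate 3, at -5.00 (adjusted p = 0.187), and without CS + LPS replicate 3, at -5.04 (adjusted p = 0.228). Within slide 2, control replicate 3 alone stood for the control group and the difference was 0.27. For NaHS against control the difference was 1.14 (-3.11 to 5.39, adjusted p = 0.773), and -0.62 within slide 1. For PPG against control it was -1.09 (-5.33 to 3.16, adjusted p = 0.731), and 0.78 without PPG replicate 2.

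With its second probe Cd300lg passed both thresholds for CS + LPS against control. The log2 fold change was -2.19 ± 0.81 (SE, adjusted p = 0.139), yet CS + LPS replicate 3 lay above control replicate 3 and the groups overlapped. The call was lost without control replicate 1 (-1.73), CS + LPS replicate 1 (-1.62) or CS + LPS replicate 2 (-2.02), and within slide 2 the difference was -1.20 (adjusted p = 0.387). Against control the second probe differed by -0.028 with NaHS (adjusted p = 0.988) and by -1.24 with PPG (adjusted p = 0.324). The treated groups did not differ by a called amount either, at 2.23 for NaHS against PPG with the first probe (adjusted p = 0.761) and 1.21 with the second (adjusted p = 0.678).

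Cd300c2, whose mouse counterpart is an activating receptor of myeloid cells that pairs with Tyrobp and Fcer1g, was higher than in control rats after CS + LPS and after CS + LPS with PPG, with no call for NaHS. Its log2 signal was 9.39, 10.33 and 7.99 in the control group and 10.90, 11.09 and 11.35 in the CS + LPS group. It was 9.61, 10.09 and 9.80 in the NaHS group and 10.35, 11.14 and 10.75 in the PPG group. All CS + LPS arrays and all PPG arrays lay above all control arrays, all NaHS arrays lay below all PPG arrays, and the NaHS arrays lay within the range of the controls. Groups without overlap were found for 25.2% of detected probes between NaHS and PPG. The means were 9.24 ± 1.18, 9.83 ± 0.24, 10.75 ± 0.40 and 11.11 ± 0.23 (SD, n = 3) for control, NaHS, PPG and CS + LPS in rising order.

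For CS + LPS against control, Cd300c2 rose by 1.88 ± 0.46 on the log2 scale (SE), a 3.67-fold difference (95% interval 0.86 to 2.89 in log2, adjusted p = 0.0632). It was the only one of the 4 measured members that was DE in this comparison, and 1.65% of all detected probes were DE and higher. The groups did not overlap, as for 25.2% of all detected probes. Without control replicate 3 the difference was 1.25, and without control replicate 2 it was 2.42. Within slide 2, and with slide as a block, it was 3.12, a value that rests on control replicate 3. The p threshold was missed with the methods' test for 2 groups on the same values, and control replicate 3 had the lowest level of all 12 arrays.

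For CS + LPS + PPG against control, Cd300c2 rose by 1.51 ± 0.46 (SE), a 2.84-fold difference (95% interval 0.49 to 2.52 in log2, adjusted p = 0.0754). It was again the only DE member of 4, beside 2.32% of detected probes that were DE and higher, and the groups did not overlap, as for 33.2% of detected probes. Without control replicate 3, which is also the value within slide 1, the difference was 0.89 (adjusted p = 0.115) and fell short of the 2-fold threshold. For CS + LPS + NaHS against control, 0 of 4 members were DE, where 1.3% of detected probes were DE and higher, and Cd300c2 differed by 0.60 (95% interval -0.42 to 1.61, adjusted p = 0.506). That value was -0.025 without control replicate 3 and 1.14 without control replicate 2, the latter being called (adjusted p = 0.119). Neighbours in the order of the levels did not differ by a called amount in any of the 3 steps, the NaHS to PPG step being 0.91 lower in NaHS (95% interval of the difference -1.93 to 0.11, adjusted p = 0.595).

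Between the treated groups 0 of 4 members were DE, beside 0.523% of all detected probes. In limma no detected probe had an adjusted p under 0.05 in that comparison, and 1857 had an unadjusted p under 0.05. For CS + LPS + PPG against CS + LPS, 0 of 4 members were DE as well, beside 2.05% of all detected probes, and Cd300c2 differed by -0.37 (95% interval -1.39 to 0.65, adjusted p = 0.819). With slide as a block that difference was -2.23 (adjusted p = 0.013), an estimate that rests on control replicate 3 as the link between the slides. Under that setting 19.4% of all detected probes were DE in this comparison. The most intense probe of Cd300lg differed by 2.15 in the same comparison (adjusted p = 0.734), and by -3.11 with the slide block (adjusted p = 0.49).

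The comparison of CS + LPS + NaHS with CS + LPS chose the family, and its values are a description. The mean of Cd300lg was 4.38 higher in log2 with NaHS by the first probe and 2.16 higher by the second, and the mean of Cd300c2 differed by -1.28. Cd300lf, the measured member nearest to these that did not reach a 2-fold difference, was 0.52 higher. The NaHS arrays lay on slide 1 and the CS + LPS arrays on slide 2, and with slide as a block the differences were -0.89 and 0.68 for the 2 probes of Cd300lg and -3.14 for Cd300c2.

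**Figure D3:**
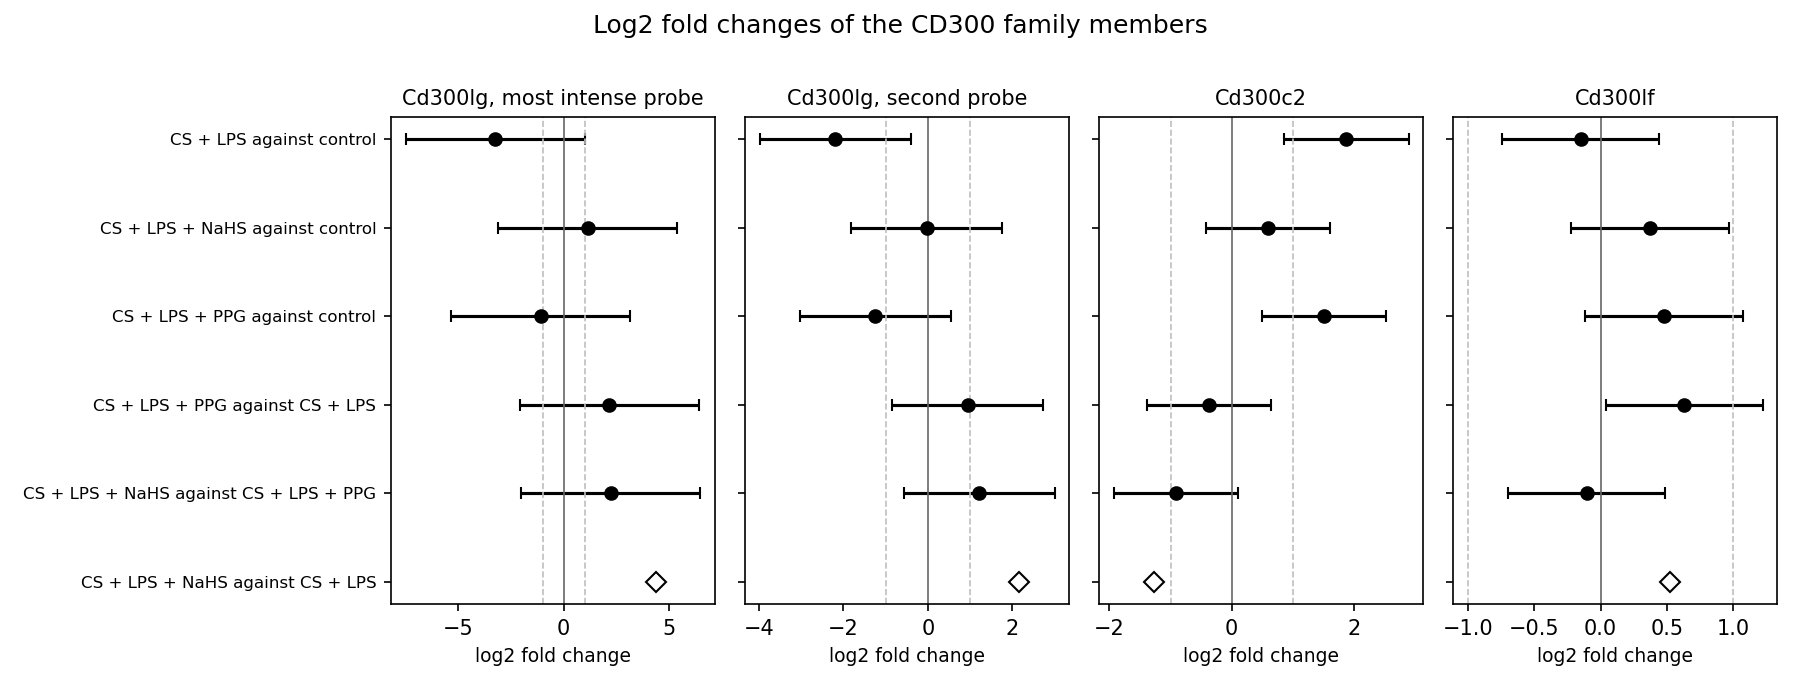
Log2 fold changes (horizontal axis) of both Cd300lg probes, Cd300c2 and Cd300lf in 6 comparisons (rows), with 95% intervals from limma, and dashed lines at 2-fold. Open diamonds mark the comparison that chose the family and carry no interval. The intervals of Cd300c2 lie above 0 for CS + LPS and for PPG against control, and those of the first Cd300lg probe include 0 in all 5 tested comparisons. Each panel has its own horizontal scale.

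Cd300lf, an inhibitory receptor of macrophages, neutrophils and mast cells that binds ceramide, varied less. Its log2 signal was 8.40, 8.22 and 7.93 in the control group, 7.67, 8.79 and 7.64 in the CS + LPS group, 8.70, 8.50 and 8.46 in the NaHS group, and 8.64, 8.58 and 8.76 in the PPG group. The NaHS and PPG arrays lay above all control arrays, while CS + LPS replicate 2 lay above and the other CS + LPS arrays below the controls. Against control the differences were -0.15 (95% interval -0.74 to 0.44, adjusted p = 0.73) in CS + LPS, 0.37 (-0.22 to 0.96, adjusted p = 0.478) with NaHS and 0.48 (-0.11 to 1.07, adjusted p = 0.256) with PPG. None reached 2-fold, and groups without overlap were found for 24.8% of detected probes with NaHS and for 33.2% with PPG. For PPG against CS + LPS the difference was 0.63 (0.037 to 1.22, adjusted p = 0.45), below 2-fold, and without CS + LPS replicate 2 it was 1.01 (adjusted p = 0.024).

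Cd300lb, an activating receptor that signals through Tyrobp, was close to background. Its spots were well above background in 2 of 6 cases in control, 0 of 6 in CS + LPS, 1 of 6 with NaHS and 3 of 6 with PPG. It counted as detected through the PPG group alone, where 1 of its 2 spots passed on each array, and its spots differed by 5.72 on the log2 scale in control replicate 2. No fold change is given for it, but the counts of DE members out of 4 above include it. With only probes above background on all 12 arrays, 3 members were left and the counts of DE members were the same. The log2 signal of Cd300lb ranged from 2.46 to 6.48 over the 12 arrays, and the highest was that of control replicate 2. Cd300e, a neighbouring gene outside the chosen members, was above background on 0 of 12 arrays.

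Other receptors with a like immunoglobulin domain gave a background for the members. Of 12 such relatives looked for, 7 had a probe and 6 were detected, and 3 of the 6 were DE and higher in each comparison with control. The median log2 fold change of the 6 was 1.07 in CS + LPS, 1.24 with NaHS and 1.06 with PPG, where the medians over all detected probes were -0.039, 0.0038 and -0.010. These comparisons share the control arrays, and the list was drawn up with results of these data known.

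Trem2, a lipid-binding receptor of macrophages that signals through Tyrobp, was the relative with the smallest adjusted p. Its log2 signal was 10.60, 10.83 and 11.13 in control, 12.59, 13.17 and 13.27 in CS + LPS, 12.40, 12.49 and 12.63 with NaHS, and 13.19, 13.63 and 12.93 with PPG. Every exposed array lay above every control array, and control replicate 3 was the highest of the controls. Trem2 rose by 2.16 ± 0.23 in CS + LPS (SE, adjusted p = 0.00673), by 1.66 ± 0.23 with NaHS (adjusted p = 0.036) and by 2.40 ± 0.23 with PPG (adjusted p = 0.00678). These increases stayed past both thresholds in each alternative run, and were 1.88 within slide 2 for CS + LPS and 1.80 and 2.54 within slide 1 for NaHS and PPG. The NaHS values of Trem2 lay above all controls. Those of Cd300c2, on arrays that helped to choose the family, lay within the range of the controls. Trem2 was also lower with NaHS than with PPG, by less than 2-fold, at -0.74 (adjusted p = 0.563). These groups did not overlap, as for 25.2% of detected probes.

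Fcmr, the receptor for the Fc part of IgM, rose by 1.23 in CS + LPS (adjusted p = 0.0375) and by 1.31 with NaHS (adjusted p = 0.0982), and differed by 0.87 with PPG (adjusted p = 0.0635). Trem1, an amplifier of inflammation on neutrophils and monocytes, rose by 1.56 in CS + LPS (adjusted p = 0.128) and by 1.24 with PPG (adjusted p = 0.161), but by less than 2-fold in both without control replicate 3, at 0.93 and 0.62. The call of Trem1 for PPG was also lost without CS + LPS replicate 2, any 1 of the NaHS arrays, or PPG replicate 1 or 2, and that for CS + LPS without CS + LPS replicate 3 (1.21). Treml4 was dim, and rose by 1.90 with NaHS (adjusted p = 0.141) and by 2.36 with PPG (adjusted p = 0.0315), values that were 0.58 and 0.85 under another background correction. Pigr, which carries polymeric immunoglobulin across epithelium, and Treml2 were not DE in any comparison.

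The adaptors and kinases through which activating CD300 members signal mostly missed the DE thresholds. Of 13 detected genes, 1 was DE and higher in CS + LPS, 1 with NaHS and 3 with PPG against control, and none was DE between exposed groups. Among all detected probes, 1.65%, 1.3% and 2.32% were DE and higher in these comparisons with control. The median log2 fold change of the 13 was 0.49, 0.45 and 0.33 in the same order, where the medians over all detected probes were -0.039, 0.0038 and -0.010. Fcer1g, the common gamma chain of Fc receptors, had log2 signals of 14.26, 14.75 and 13.29 in control and 15.09, 15.32 and 15.36 in CS + LPS. It had 15.24, 15.19 and 15.01 with NaHS and 15.17, 15.36 and 15.20 with PPG. All exposed arrays lay above all controls, and control replicate 3 was the lowest.

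Fcer1g rose by 1.16 in CS + LPS (adjusted p = 0.0657), by 1.05 with NaHS (adjusted p = 0.15) and by 1.14 with PPG (adjusted p = 0.0495). Tyrobp rose by 1.02 with PPG (adjusted p = 0.0534), and differed by 0.99 in CS + LPS and by 0.75 with NaHS. Hcst (DAP10), an adaptor that recruits phosphatidylinositol 3-kinase, rose by 1.08 with PPG (adjusted p = 0.0432), and differed by 0.85 in CS + LPS and by 0.63 with NaHS. Without control replicate 3 the increases fell short of 2-fold, at 0.75, 0.65 and 0.74 for Fcer1g, 0.71 for Tyrobp and 0.81 for Hcst, and that of Tyrobp was 0.93 without PPG replicate 3. Syk, the kinase that these adaptors recruit, differed by 0.75, 0.54 and 0.25 from control in CS + LPS, NaHS and PPG.

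**Figure D4:**
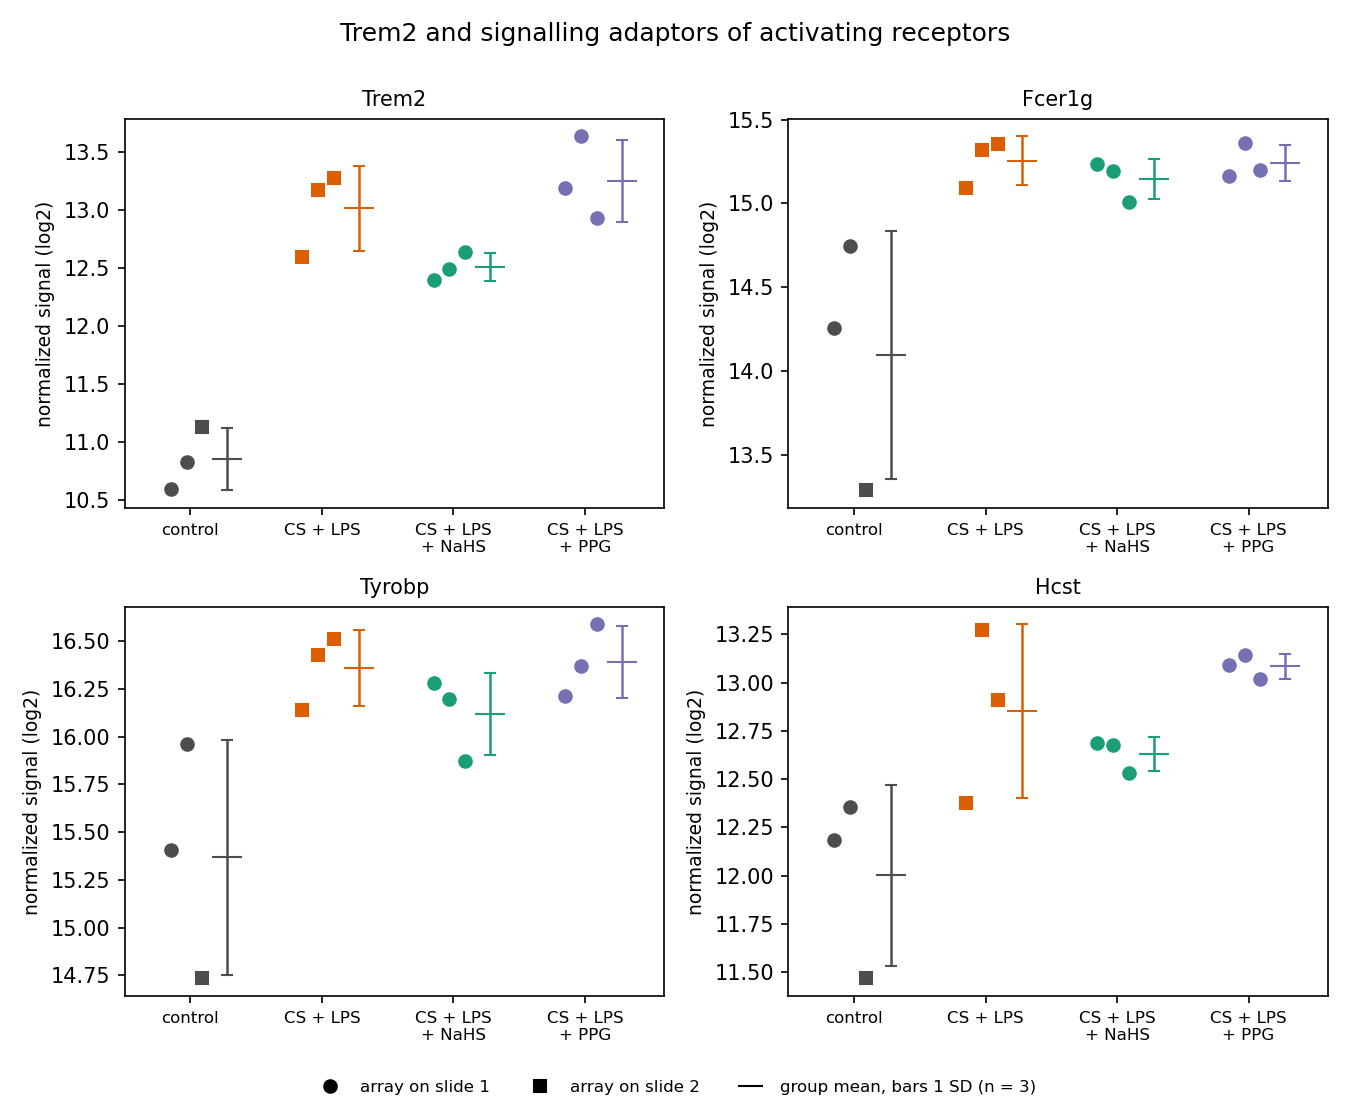
Normalized signal on the log2 scale (vertical axis) of each array for Trem2, Fcer1g, Tyrobp and Hcst by group, with circles for slide 1, squares for slide 2, and group means with 1 SD (n = 3). Trem2 has its controls at 10.60 to 11.13 and all exposed arrays at 12.40 or above, and in the panels of the adaptors control replicate 3, the square in the control column, is the lowest array.

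The phosphatases and inhibitory adaptors that the inhibitory members use held 0 DE genes of 8 detected in each of the 5 tested comparisons. Ptpn6 (SHP-1), the phosphatase recruited by inhibitory motifs, differed from control by 0.52 in CS + LPS (adjusted p = 0.107), 0.35 with NaHS and 0.44 with PPG. Il4r, with which Cd300lf is known to associate, differed by -0.60, -0.46 and -0.80 (adjusted p = 0.135, 0.31 and 0.0605). Both stayed under 2-fold.

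Other receptors and bridging proteins for phosphatidylserine, a lipid shared as ligand with CD300 members, held 9 detected genes. Against control, 1 was DE and lower in CS + LPS, 0 were DE with NaHS, and 1 was DE and higher with PPG. Adgrb1, a receptor for the engulfment of dying cells, was dim, with group means of 4.72 to 6.25. It fell by 1.05 in CS + LPS (adjusted p = 0.0744), but by 0.93 without control replicate 3 and by 0.89 without CS + LPS replicate 2. The fall was 0.70 with quantile normalization and 0.75 under another background correction. Adgrb1 was also DE and higher for PPG against CS + LPS, by 1.53 (adjusted p = 0.0385), and for NaHS against CS + LPS, by 1.18 (adjusted p = 0.107), and these values were 0.72 and 0.57 under another background correction. The latter was 0.93 without NaHS replicate 1 and 0.97 with quantile normalization. Havcr1, which encodes TIM-1, a ligand of Cd300lb, was dim as well, with group means of 4.02 to 5.03. Havcr1 rose by 1.01 with PPG (adjusted p = 0.0916). Its call was lost without control replicate 1 (0.94), control replicate 2 (0.92), PPG replicate 2 (0.99) or PPG replicate 3 (0.61), and its value was 0.045 under another background correction. Mertk, Axl and Tyro3, the receptors that use Gas6 and Pros1 as bridges, were not DE in any tested comparison.

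The endothelial sialomucins Cd34 and Podxl were detected and neither was DE. Of 8 detected endothelial markers 0 were DE for CS + LPS and for PPG against control, and 1, the junction protein Cdh5, was DE and higher with NaHS, by 1.08 (adjusted p = 0.147), but by 0.94 without control replicate 3 and by 0.95 without NaHS replicate 3. Below 2-fold, Pecam1 differed from control by -0.55, -0.59 and -0.82 in CS + LPS, NaHS and PPG (adjusted p = 0.0746, 0.14 and 0.0229). Tek differed by -0.77, -0.29 and -0.47 (adjusted p = 0.0392, 0.36 and 0.089). Emcn went the other way, by 0.99, 0.84 and 0.97 (adjusted p = 0.104, 0.234 and 0.0831). Kdr and Tie1 were also higher than control in each, by less. Cdh5 was also DE and higher with NaHS than in CS + LPS, by 1.45 (adjusted p = 0.061), and than with PPG, by 1.04 (adjusted p = 0.563). With slide as a block the first of these was 1.03 and missed the p threshold, and the second was below 2-fold without NaHS replicate 3 (0.92), PPG replicate 2 (0.93) or PPG replicate 3 (0.86).

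Of 4 detected markers of venules and high endothelium, 1 was DE and higher in each comparison with control. This was Sele, an adhesion molecule of activated endothelium, which rose by 1.81 in CS + LPS (adjusted p = 0.0247), by 2.32 with NaHS (adjusted p = 0.036) and by 2.34 with PPG (adjusted p = 0.0154). Under another background correction the values of Sele were 0.37, 0.82 and 0.89, below 2-fold. Icam1, Vcam1 and Glycam1 were not DE in any comparison.

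The summed signal of the 8 endothelial markers ranged from 263843 to 281442 in control rats, between 228705 and 280373 after CS + LPS, between 260128 and 280255 when NaHS was added, and between 207417 and 267456 when PPG was added, and the ranges overlapped. Sums of linear signal follow their brightest markers, here Plvap and Kdr, with mean log2 signals of 17.36 and 15.86 in control. Markers of fat and heart, tissues rich in vessels, differed widely between arrays of a group. Of 6 detected fat markers, 1 was DE and lower in CS + LPS against control, 0 were DE with NaHS, and 1 was DE and higher with PPG, and of 6 heart muscle markers 0 were DE against control. With PPG 4 fat markers were DE and higher than in CS + LPS (Adipoq by 4.68, Cidec by 1.31, Car3 by 2.67 and Thrsp by 2.88), and 3 were DE and lower with NaHS than with PPG. The fat markers summed to 633.5 to 13612 in control rats, between 977.1 and 1398 after CS + LPS, between 761.5 and 1887 when NaHS was added, and between 2737 and 8030.1 when PPG was added. The heart muscle markers summed to 6514 to 95222 in control rats, between 12999 and 54741 after CS + LPS, between 10455 and 57180 when NaHS was added, and between 42475 and 73632 when PPG was added. In both sums control replicate 3 was the highest of all 12 arrays. The part of these markers in the values of Cd300lg was not tested.

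Some markers of the myeloid cells that carry most CD300 members were DE against control. Of 9 detected macrophage and monocyte markers, 4 were DE and higher in CS + LPS against control (Cd68 by 1.39, Adgre1 by 1.31, Siglec1 by 1.15 and Fcgr1a by 1.00), 1 with NaHS and 3 with PPG. Without control replicate 3 the difference in CS + LPS was 0.85 for Adgre1 and 0.77 for Fcgr1a, and that with PPG was 0.73 and 0.88, all below 2-fold, which leaves 1 of the 3 calls with PPG, that of Cd68. In CS + LPS Fcgr1a was also below 2-fold without control replicate 1 (0.98), CS + LPS replicate 2 (0.90) or CS + LPS replicate 3 (0.92), and Siglec1 without CS + LPS replicate 3. The summed signal of the 9 markers ranged from 184994 to 325651 in control rats, between 174130 and 202458 after CS + LPS, between 181967 and 206039 when NaHS was added, and between 180921 and 228693 when PPG was added, and these ranges overlapped. That sum follows its brightest markers and says little about the 4 DE ones, which are a small part of it. Of 7 detected neutrophil markers, 1 was DE and higher in CS + LPS, 2 with NaHS and 4 with PPG. Their sum was 7384 to 18748 in control rats, between 15815 and 32626 after CS + LPS, between 16144 and 33252 when NaHS was added, and between 24755 and 35010.1 when PPG was added. Of 8 detected mast cell markers, 4 were DE and higher and 1 lower in CS + LPS against control. With NaHS 0 were DE, and with PPG 1 was DE and higher. Their sum was 2918 to 4423 in control rats and between 3621 and 14609 after CS + LPS. It lay between 3889 and 5192 when NaHS was added, and between 3553 and 3831 when PPG was added. The 14609 was that of CS + LPS replicate 1, and replicates 2 and 3 had 4772 and 3621. Marco and Elane were not detected. The part of these cells in the values of Cd300c2 was not tested.

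The genes most alike to each member were read from the correlation over the 12 arrays, as a description. For Cd300c2 they were Mettl23 (r = 0.953), Psmb2 (r = 0.936), Clp1 (r = 0.932), Polr2j (r = 0.925) and Rbm28 (r = 0.919). For the most intense probe of Cd300lg they were Rbms2 (r = 0.903), Erich4 (r = 0.851), Itpkb (r = 0.816), Gfra2 (r = 0.798) and Atf1 (r = 0.784). The values for Cd300lg rest on its 2 separate ranges. Within the 8 high arrays they were 0.566, -0.232, 0.453, 0.50 and -0.080 in the same order. All points share the arrays, the slides and the normalization.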

How the data were processed

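The authors deposited, for each array, the intensity of every spot as the processed signal of Agilent Feature Extraction 10.7.3.1, with the background already subtracted, and the median signals of spot and surroundings. The authors also deposited 5 lists of DE probes with log2 signals of each rat, whose normalization is not given in the sources used here. Their fold changes, p-values and 60 flag columns were not used. Of the 5 lists, 1 held a probe of a member. Cd300c2, DE here for CS + LPS and for PPG against control, was therefore not in the authors' lists for both.

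Outlier spots were dropped, spots of a probe were averaged, and log2 values were aligned between arrays at their 75th percentile. A probe was kept when each of the 3 arrays of any group had it well above background, which needed 0.5 or more of its spots. The linear model of limma 3.58.1 (R 4.3.3) was fitted to all 12 arrays, after a test on simulated data. The number of arrays limits the precision. The most intense probe stood for a gene.

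Symbols came from the RefSeq accession of a probe (17514 probes) or the authors' lists (194), and 12659 probes had none. The gene table of GRCr8 served for names and order only. Array probe sequences were not used here.

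The members and gene lists were chosen with earlier results of these data known. The genes named are all members, relatives and adaptors that passed the thresholds, those whose role is close to a member, and the 5 genes most alike. The alternatives were quantile normalization, a 75th percentile from probes above background on each array, normexp with an offset of 50 on median signals (the mean signals planned were not in the files), outlier spots kept, 2 other filters, the mean of a gene's probes, slide or replicate number as a block, each slide alone, the methods' t-test, a fit to only the 2 groups compared, and each array left out. The authors' log2 values of Cd300c2, and all alternatives for genes outside the family, were added after seeing the data.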

Additional observations from a re-analysis of the deposited data

How the results depend on the processing

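The number of DE members was 1, 0, 1, 0 and 0 for CS + LPS, NaHS and PPG against control, PPG against CS + LPS, and NaHS against PPG. No such count was made under any setting for NaHS against CS + LPS, the comparison that chose the members. With normexp the count for CS + LPS against control was 2, Cd300lb being added, beside 2.09% of all detected probes. With slide as a block it was 1 for NaHS against control (Cd300lb), 0 for PPG against control and 1 for PPG against CS + LPS (Cd300c2). Under that setting 1.94%, 3.11% and 19.4% of all detected probes were DE in these comparisons. Within slide 1 it was 1 for NaHS (Cd300lb) and 0 for PPG against control, beside 1.97% and 3.12% of all detected probes. In the methods' t-test it was 0 for CS + LPS and 0 for PPG against control, beside 2.09% and 2.34% of all detected probes. Leaving out each array gave 1 to 3, 0 to 1, 0 to 1, 0 to 1 and 0 to 0 in the order above. The members added in these runs were Cd300lb and Cd300lg for CS + LPS against control, and Cd300lb or Cd300c2 for NaHS against control. For PPG against CS + LPS it was Cd300lf. The calls of Cd300lb compare signals near background. Its spots were well above background in 2 of 6 cases in control, 0 of 6 in CS + LPS and 1 of 6 with NaHS. With the main processing its means in these 2 exposed groups were below control, where those of Cd300c2 were above.

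The replicate block gave 2 DE members for CS + LPS against control (Cd300c2 and Cd300lb) and 1 for NaHS against control (Cd300lb). All detected probes were DE at 4.55% and 2.68% there. The rats were divided into groups at random, and the labels name no pairing by replicate number. Same-numbered arrays deviated together at r = -0.31 to 0.14 over 18 pairs, with 2 pairs over 0.1. Differently numbered arrays did so at r = -0.20 to 0.22 over 36 pairs. With 3 arrays in a group, such values cannot show whether rats were paired.

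Directions turned as follows. With slide as a block Cd300c2 was at -0.025 for NaHS against control, Cd300lf at 0.10 for CS + LPS against control, and Cd300lg at 0.27 for CS + LPS against control, -0.62 for NaHS against control, -0.89 for NaHS against CS + LPS and -3.11 for PPG against CS + LPS, with its second probe at -0.53 in the last. Within slides the values of comparisons with control were the same (-0.025 for Cd300c2 and -0.62 for Cd300lg with NaHS, 0.10 for Cd300lf and 0.27 for Cd300lg in CS + LPS). With quantile normalization the second probe of Cd300lg was at 0.011 for NaHS against control. Leaving out each array gave -0.025 to 1.14 for Cd300c2 with NaHS, -0.53 to 0.043 for Cd300lf in CS + LPS, -0.62 to 2.22 for Cd300lg with NaHS, -2.84 to 0.78 for Cd300lg with PPG, and -0.52 to 0.43 for the second probe with NaHS, each against control. The cause was not tested. The authors' log2 values gave 1.94, 0.67 and 1.59 for Cd300c2 in CS + LPS, NaHS and PPG against control.

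With 3 rats in a group and 1 control array on the slide of the CS + LPS arrays, differences within slides rest on few arrays. Cd300lb is limited by its signal, which is near background.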
